A study of Homo sapiens with 6 samples.

Results

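The suppressors of cytokine signalling (SOCS) and the protein inhibitors of activated STAT (PIAS) were described in SW780 exposed to RC48. The 9 genes SOCS1, SOCS2, SOCS3, SOCS4, SOCS5, SOCS6, CISH, PIAS1 and PIAS3 were chosen by gene symbol, of 16390 genes listed in each library, and 8 of the 9 were listed and had enough counts to be tested. CISH had no row in any library and counted as not detected. SW780 is an established line of human bladder cancer, used by the study as a luminal type. RC48 (disitamab vedotin) couples an antibody to ERBB2 with MMAE, a drug that blocks microtubule assembly. Total RNA was sequenced in 3 libraries labelled Control and 3 libraries labelled RC48, both from SW780 only. The study's methods give 25 µg/ml for RC48, and the sources used here name no exposure time and no vehicle for Control. Both groups come from 1 cell line in culture, so no other cells of a tumour are present. Nothing states that the replicates were separate cultures, so the p-values measure the spread between these samples.

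Cytokine receptors without a kinase of their own use the Janus kinases (JAK), which phosphorylate the receptor and the STAT transcription factors. CISH and the SOCS proteins carry an SH2 domain that binds phosphorylated receptors or kinases, and a C-terminal SOCS box that recruits a cullin ubiquitin ligase. Several of them are themselves STAT targets, which closes a negative feedback loop. The PIAS proteins act in the nucleus, where they bind STAT factors and other regulators and promote their modification by SUMO. In cells that respond to interleukin 6 or its relatives, SOCS3 is the best known of these inhibitors.

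Each library held between 16453233 and 17988030 estimated counts. Levels of 1 gene are given as CPM (counts scaled to library size) after TMM normalisation, with SD over n = 3 libraries, and intervals and floors cover counting error only. Libraries of 1 group differed by more than sampling noise, with a chi-square per degree of freedom of 1.47 to 10.98 between Control replicates and 20.7 to 124 between RC48 replicates. The RC48 libraries also differed in how counts moved with the GC content of a transcript. Over 13000 genes, Spearman's rho between GC content and the log2 ratio to Control was 0.752 in RC48 replicate 1, -0.019 in replicate 2 and 0.586 in replicate 3. Epithelial keratins marked all 6 libraries, and the 5 epithelium markers summed to 10861 to 12684 CPM in Control and 12743 to 17000.1 CPM in RC48. Within that list KRT7 lay higher in every RC48 library (6232 to 9494 CPM, against 4805 to 5655 CPM) and EPCAM lower (81.8 to 124 CPM, against 140 to 155 CPM). The 7 luminal markers summed to 761 to 776 CPM in Control and 696 to 868 CPM in RC48. GATA3 lay at 230 to 238 CPM in Control and at 308, 217 and 231 CPM in RC48 replicates 1, 2 and 3. ERBB2 lay at 203 to 208 CPM in Control and at 277, 185 and 224 CPM in these RC48 replicates. UPK2 lay at 15.3 to 16.9 CPM and at 35.4, 13.2 and 20.2 CPM in the same order. UPK3A was higher in every RC48 library, at 0.223 to 0.546 CPM against 0 to 0.174 CPM. PPARG lay at 157 to 170 CPM over the 6 libraries. FOXA1 lay at 147 CPM in each Control library and at 87.7 to 123 CPM in RC48, and KRT20, at 1.94 to 2.03 CPM in Control, was called lower at 0.486 to 1.00 CPM in RC48. The 4 basal markers summed to 333 to 352 CPM in Control and 310 to 343 CPM in RC48, and none was called. Most of this sum was CD44, at 321 to 338 CPM in Control and 286 to 331 CPM in RC48.

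GC content differed among the SOCS genes, also in their coding ends. The sequences below are the last 120 coding bases before the stop codon, from the transcript models of GENCODE release 29 on GRCh38 (hg38), the region that encodes the end of the SOCS box. Capitals mark G and C. SOCS3 and SOCS1 are shown as GC-rich members that were higher in every RC48 library, and SOCS4, SOCS5 and SOCS6 as AT-rich members that were lower in 2 of the 3. The coding end of SOCS2 is not shown. SOCS2, with 47.3% GC over its transcript, was also higher in every RC48 library.
SOCS3, chr17:78358421-78358540, minus strand, 60.8% GC: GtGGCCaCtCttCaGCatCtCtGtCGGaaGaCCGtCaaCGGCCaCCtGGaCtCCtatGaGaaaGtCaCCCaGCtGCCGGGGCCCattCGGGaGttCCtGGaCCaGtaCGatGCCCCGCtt
SOCS1, chr16:11254846-11254965, minus strand, 69.2% GC: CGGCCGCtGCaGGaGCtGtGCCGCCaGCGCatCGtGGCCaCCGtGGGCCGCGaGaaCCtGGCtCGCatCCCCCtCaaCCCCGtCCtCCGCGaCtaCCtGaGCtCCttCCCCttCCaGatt
SOCS4, chr14:55044242-55044361, plus strand, 35.8% GC: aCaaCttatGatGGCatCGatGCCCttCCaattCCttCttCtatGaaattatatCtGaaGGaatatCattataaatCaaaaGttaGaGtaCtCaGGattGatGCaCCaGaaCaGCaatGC
SOCS5, chr2:46760019-46760138, plus strand, 39.2% GC: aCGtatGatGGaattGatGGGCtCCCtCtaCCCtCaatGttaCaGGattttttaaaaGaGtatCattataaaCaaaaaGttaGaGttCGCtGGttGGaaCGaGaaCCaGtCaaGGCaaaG
SOCS6, chr18:70326154-70326273, plus strand, 40.8% GC: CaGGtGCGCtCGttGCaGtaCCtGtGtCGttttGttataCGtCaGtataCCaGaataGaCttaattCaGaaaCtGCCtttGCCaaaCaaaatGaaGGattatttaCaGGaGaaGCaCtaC
Over the longest protein-coding transcript, GC content was 60.0% for SOCS3, 69.1% for SOCS1, 47.3% for SOCS2, 35.3% for SOCS4, 37.5% for SOCS5, 38.0% for SOCS6, 40.9% for PIAS1 and 53.9% for PIAS3.

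SOCS3 was higher in RC48 and was the 1 member that edgeR called. SOCS3 (NCBI gene 9021, chr17:78356778-78360077 on the minus strand of hg38) binds the gp130 and leptin receptors and blocks the JAK bound to them. It was at 11.4, 11.4 and 13.9 CPM in Control replicates 1, 2 and 3, and at 24.8, 21.3 and 22.1 CPM in the RC48 replicates. The groups did not overlap, and the lowest RC48 value was in replicate 2. The means were 12.2 ± 1.44 CPM in Control and 22.7 ± 1.80 CPM in RC48. This is a 1.86-fold difference (log2 fold change 0.89, standard error 0.15). Its p in edgeR's quasi-likelihood test was 0.0255 after Benjamini-Hochberg adjustment across all genes tested. In bulk RNA, more RNA per cell and more cells that carry it cannot be told apart. The exact permutation test gave p = 0.1, the smallest that 3 libraries against 3 allow. With DESeq2 the log2 fold change was 0.88, with an adjusted p of 2.82e-05.

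The call of SOCS3 was lost when any of 4 libraries was left out. Its adjusted p in edgeR's quasi-likelihood test was 0.202, 0.196 and 0.0904 without Control replicate 1, 2 or 3, and 0.143 without RC48 replicate 3. It was 0.00176 without RC48 replicate 1 and 0.0131 without RC48 replicate 2. The log2 fold change stayed between 0.82 and 0.99 over these 6 fits. The GC offset, which subtracts each library's trend with GC content, lowered it to 0.60 ± 0.14, a 1.51-fold difference, with an adjusted p of 0.0371 in the same test. In RC48 replicate 2, the library without the trend, SOCS3 was 1.72 times the Control mean, against 1.99 and 1.78 times in replicates 1 and 3, on the scale of CPM plus a pseudocount of 0.5.

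**Figure D1:**
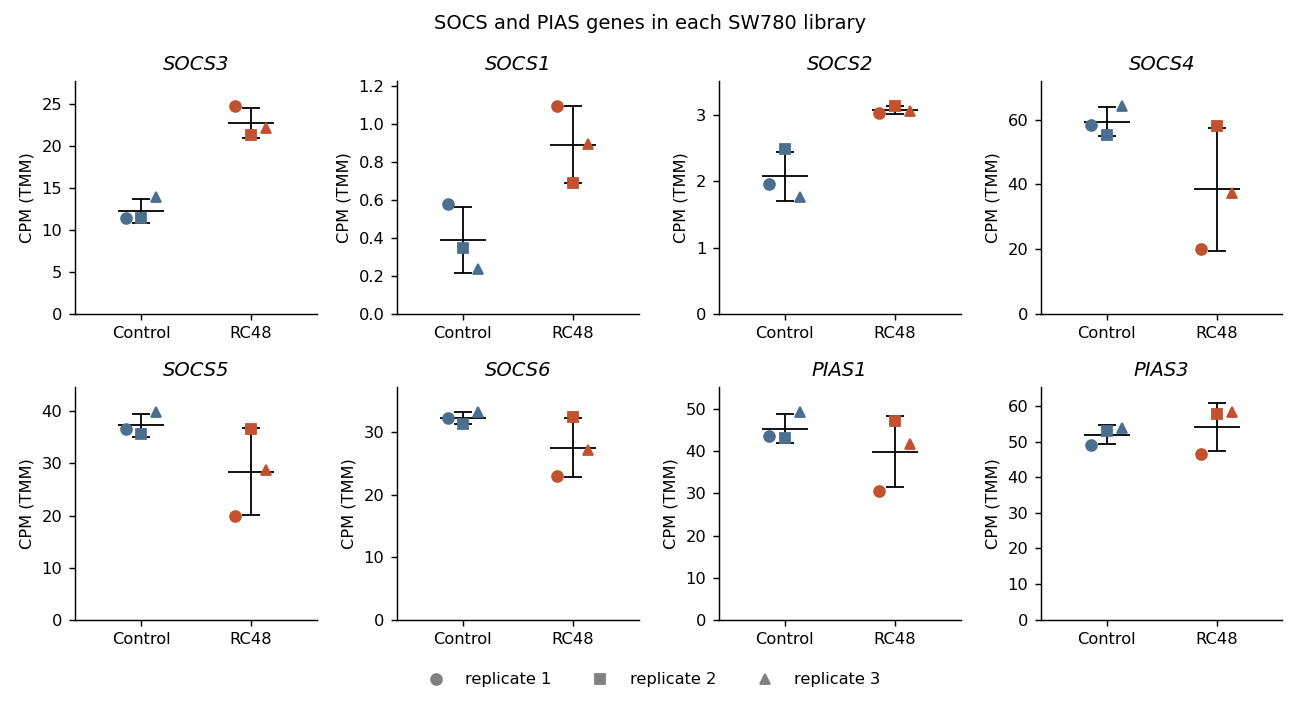
Level of the 8 detected members in each library, as TMM-normalised CPM on linear axes that start at 0. Points are libraries (circle, square and triangle for replicates 1, 2 and 3), and the line and bar are the mean and SD of 3 libraries. SOCS3, SOCS1 and SOCS2 lie higher in every RC48 library, while SOCS4, SOCS5, SOCS6 and PIAS1 are lowest in RC48 replicate 1 and near Control in replicate 2.

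SOCS3 was the 1 member of 8 called by edgeR at an adjusted p under 0.05. Over all 13055 genes tested, 288 were called (2.21%), of which 258 were higher (1.98%) and 30 lower (0.23%) in RC48. In 3 of the 8 members (SOCS3, SOCS1 and SOCS2), all RC48 libraries exceeded all Control libraries, as they did for 17.4% of all genes tested. No member was separated in the other direction, against 14.1% of all genes tested. The unadjusted p was under 0.05 for these 3 members and for 19.1% of all genes tested. DESeq2 also called SOCS3 alone, against 5.7% of all genes tested, as did edgeR with each library's GC trend subtracted (the GC offset), against 7.87%. With the GC offset, 590 of all genes tested were higher and 437 lower.

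SOCS1 and SOCS2 were higher in each RC48 library, from few counts. SOCS1 (NCBI gene 8651, chr16:11254405-11256200, minus strand) inhibits the kinases of the interferon receptors. It had 10, 6 and 4 counts in Control and 18, 12 and 16 counts in RC48. The groups did not overlap, but the highest Control library and the lowest RC48 library were 2 counts apart. In CPM, SOCS1 was at 0.387 ± 0.175 in Control and 0.889 ± 0.204 in RC48. The ratio of its summed counts, 46 against 20 and scaled by library size, was 2.28 with an exact 95% interval of 1.32 to 4.07. That interval leaves out the spread between libraries. Its log2 fold change was 1.18 ± 0.39 with an adjusted p of 0.190 in edgeR's quasi-likelihood test, and 0.87 ± 0.34 with the GC offset (adjusted p = 0.159).

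SOCS2 (NCBI gene 8835, chr12:93569814-93583487, plus strand) limits growth hormone signalling through STAT5. It had 34, 43 and 30 counts in Control and 50, 55 and 55 counts in RC48. All 3 RC48 libraries lay between 3.04 and 3.14 CPM, above the highest Control library at 2.49 CPM. The ratio of summed counts was 1.48, with an exact 95% interval of 1.15 to 1.91 that also leaves out the spread between libraries. The log2 fold change was 0.57 ± 0.20 (adjusted p = 0.213, edgeR's quasi-likelihood test), and 0.57 ± 0.19 with the GC offset (adjusted p = 0.102, same test). Exons of SOCS2 overlap those of the antisense gene SOCS2-AS1, and the sources used here do not say whether strand was used in counting. CISH, the founding member of the family and a target of STAT5, has no values to compare.

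SOCS4, SOCS5 and SOCS6 were lower in RC48 replicates 1 and 3 but not in replicate 2. SOCS4 (NCBI gene 122809, chr14:55027230-55049488, plus strand) and its close relative SOCS5 (NCBI gene 9655, chr2:46698952-46780245, plus strand) promote degradation of the EGF receptor, and SOCS6 (NCBI gene 9306, chr18:70288901-70330200, plus strand) binds receptor tyrosine kinases such as KIT. SOCS4 was at 58.5, 55.4 and 64.3 CPM in Control and at 20.03, 58.1 and 37.4 CPM in RC48. RC48 replicate 2 was within the Control range, replicate 1 at 0.343 times and replicate 3 at 0.634 times the Control mean. SOCS5 was at 36.5, 35.6 and 39.8 CPM in Control and at 19.9, 36.6 and 28.7 CPM in RC48. SOCS6 was at 32.4, 31.3 and 33.3 CPM in Control and at 23.0, 32.5 and 27.2 CPM in RC48. The 3 genes kept the same order of RC48 libraries, with replicate 1 lowest and replicate 2 highest.

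EdgeR called none of these 3 genes over the 6 libraries, nor did DESeq2, while voom with quality weights called all 3, as it did 61.4% of all genes tested. SOCS4 had -0.62 ± 0.33 (adjusted p = 0.305 in edgeR's quasi-likelihood test), SOCS5 had -0.39 ± 0.22 (adjusted p = 0.311) and SOCS6 had -0.23 ± 0.16 (adjusted p = 0.376). In RC48 replicates 1 and 3 the GC trend at their GC content was also below 0, and the 3 genes lay at different distances from it. At the GC content of SOCS5, the trend of all genes stood at -0.93, 0.05 and -0.36 in RC48 replicates 1, 2 and 3, and the log2 ratios of SOCS5 to Control were -0.89, -0.02 and -0.37. For SOCS4 the trend stood at -1.12, 0.06 and -0.44, and its log2 ratios were -1.54, -0.03 and -0.66, below the trend in all 3 libraries. For SOCS6 the trend stood at -0.88, 0.04 and -0.34, and its log2 ratios were -0.48, 0.01 and -0.24. SOCS6 lay above the trend in replicates 1 and 3. With the GC offset the log2 fold changes became -0.24 ± 0.10 for SOCS4 (adjusted p = 0.186 in edgeR's quasi-likelihood test), -0.02 ± 0.08 for SOCS5 (adjusted p = 0.878) and 0.15 ± 0.12 for SOCS6 (adjusted p = 0.422), so the sign of SOCS6 turned. Without RC48 replicate 2, SOCS4 (-1.05, adjusted p = 0.0262) and SOCS5 (-0.62, adjusted p = 0.0391) were called by the same test, as were 28.3% of all genes tested. SOCS1 passed narrowly in that fit as well (adjusted p = 0.0497). An exon of SOCS5 overlaps LINC01118 on the same strand.

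**Figure D2:**
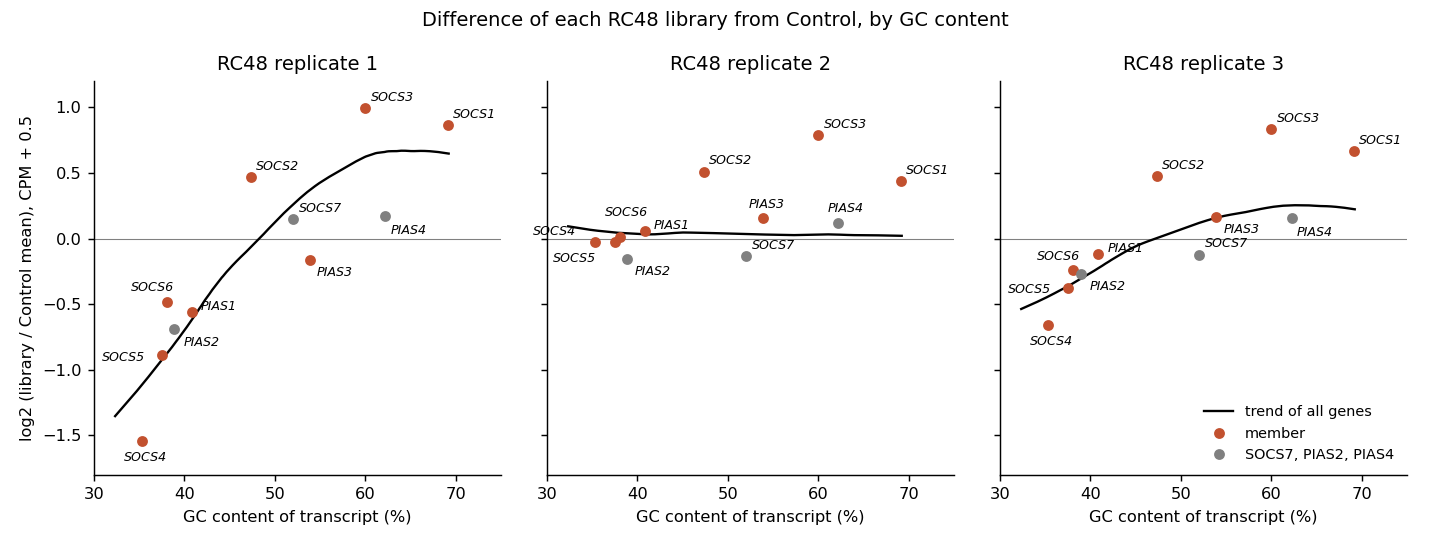
Log2 ratio to the Control mean in each RC48 library (CPM plus 0.5) against the GC content of the longest protein-coding transcript in percent, for the 8 members and for SOCS7, PIAS2 and PIAS4, with the loess trend of all genes as a line. The trend is steep in replicate 1, flat in replicate 2 and between them in replicate 3. SOCS3 and SOCS2 lie above the line in all 3 panels, and SOCS5 lies near it.

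EdgeR and DESeq2 called neither PIAS1 nor PIAS3, and voom called PIAS3 (adjusted p = 0.00993). PIAS1 (NCBI gene 8554, chr15:68054179-68198603, plus strand) is a SUMO ligase. It was at 43.7, 43.2 and 49.3 CPM in Control and at 30.7, 47.2 and 41.8 CPM in RC48. Only RC48 replicate 2 lay within the Control range, and the log2 fold change was -0.19 ± 0.18 (adjusted p = 0.504, edgeR's quasi-likelihood test). It was 0.06 ± 0.08 with the GC offset (adjusted p = 0.646, same test). PIAS3 (NCBI gene 10401, chr1:145848522-145859836, minus strand) is the family member that binds STAT3. It was at 49.0, 53.0 and 53.9 CPM in Control and at 46.4, 57.8 and 58.3 CPM in RC48. RC48 replicate 1 was below the Control range and the other two above it. Its log2 fold change was 0.06 ± 0.14 (adjusted p = 0.784, edgeR's quasi-likelihood test) and -0.11 ± 0.16 with the GC offset, so its sign differed between the fits. Exons of PIAS1 overlap CALML4 and those of PIAS3 overlap NUDT17, both on the opposite strand.

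EdgeR and DESeq2 did not call the 3 remaining genes of both families either, and voom called PIAS2 (adjusted p = 0.00687) and PIAS4 (adjusted p = 0.0421). SOCS7 was at 59.5 ± 11.1 CPM in Control and 57.7 ± 6.65 CPM in RC48, with a log2 fold change of -0.05 ± 0.17. PIAS2 was at 21.8, 24.2 and 24.1 CPM in Control and at 14.3, 20.9 and 19.3 CPM in RC48, all below Control, with a log2 fold change of -0.36 ± 0.17 (adjusted p = 0.277, edgeR's quasi-likelihood test) and of -0.03 ± 0.11 with the GC offset. PIAS4 was at 30.1, 31.1 and 29.1 CPM in Control and at 33.9, 32.7 and 33.5 CPM in RC48, all above Control. Its log2 fold change was 0.15 ± 0.12 (adjusted p = 0.426, edgeR's quasi-likelihood test) and turned to -0.15 ± 0.14 with the GC offset.

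**Figure D3:**
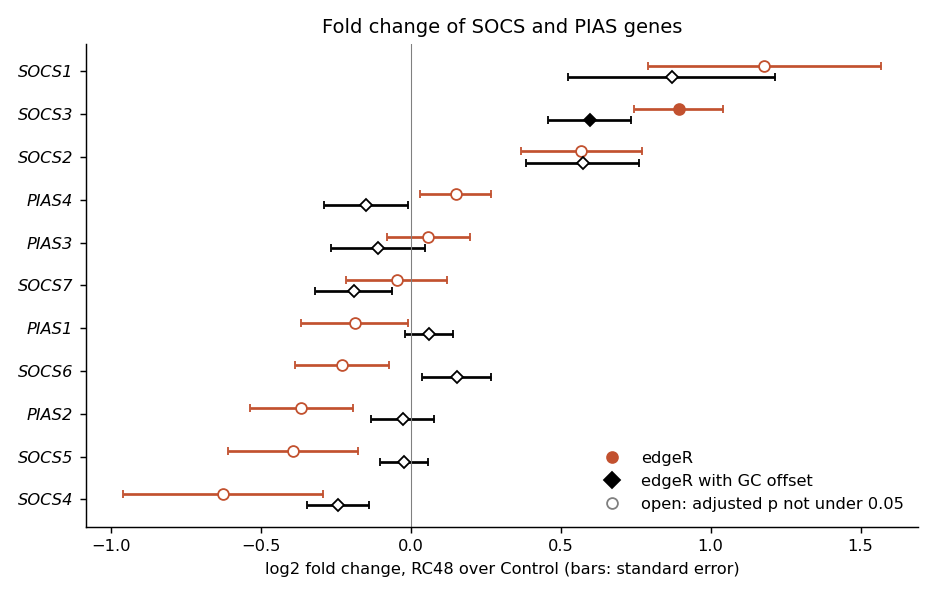
Log2 fold change of the 8 members and of SOCS7, PIAS2 and PIAS4, RC48 over Control, with standard errors as bars, from edgeR without (circles) and with (diamonds) the GC offset. Filled symbols have an adjusted p under 0.05. SOCS3 is filled in both, and SOCS6, PIAS1, PIAS3 and PIAS4 change sign.

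Levels of different genes were compared in TPM, which scales counts by gene length and by the total of the library. TPM was deposited for 5 libraries and was computed from the counts for RC48 replicate 2. In Control, PIAS3 was the most abundant member at 35.3 ± 3.34 TPM. SOCS4 (16.1 ± 2.05 TPM), SOCS5 (15.5 ± 1.61 TPM) and PIAS1 (14.7 ± 1.92 TPM) followed, and their ranges overlapped. SOCS6 (10.5 ± 0.854 TPM) and SOCS3 (8.90 ± 1.56 TPM) came next, also with overlapping ranges. SOCS2 (1.64 ± 0.221 TPM) and SOCS1 (0.747 ± 0.316 TPM) were lowest, and each was separated from its neighbour. In RC48, PIAS3 was again first at 34.7 ± 6.09 TPM, and SOCS3 was second at 15.4 ± 0.307 TPM. The ranges of SOCS3, PIAS1 (12.3 ± 3.19 TPM), SOCS5 (11.2 ± 3.94 TPM), SOCS4 (10.03 ± 5.39 TPM) and SOCS6 (8.57 ± 1.91 TPM) each overlapped the next in RC48. SOCS2 (2.27 ± 0.190 TPM) and SOCS1 (1.55 ± 0.237 TPM) remained at the end of the order.

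SOCS3 made up more of the summed TPM of SOCS1 to SOCS6 in every RC48 library. Its share of that sum was 15.7%, 16.2% and 17.9% in the Control replicates and 41.1%, 25.4% and 31.3% in the RC48 replicates. SOCS7, at 13.2 ± 3.21 TPM in Control and 12.1 ± 0.858 TPM in RC48, was not part of the sum. The summed TPM itself was 51.1, 49.3 and 59.9 in Control and 38.4, 60.3 and 48.4 in RC48, with overlapping ranges. The share was lowest in RC48 replicate 2, where SOCS4, SOCS5 and SOCS6 were near Control, and it remained above all Control libraries there.

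**Figure D4:**
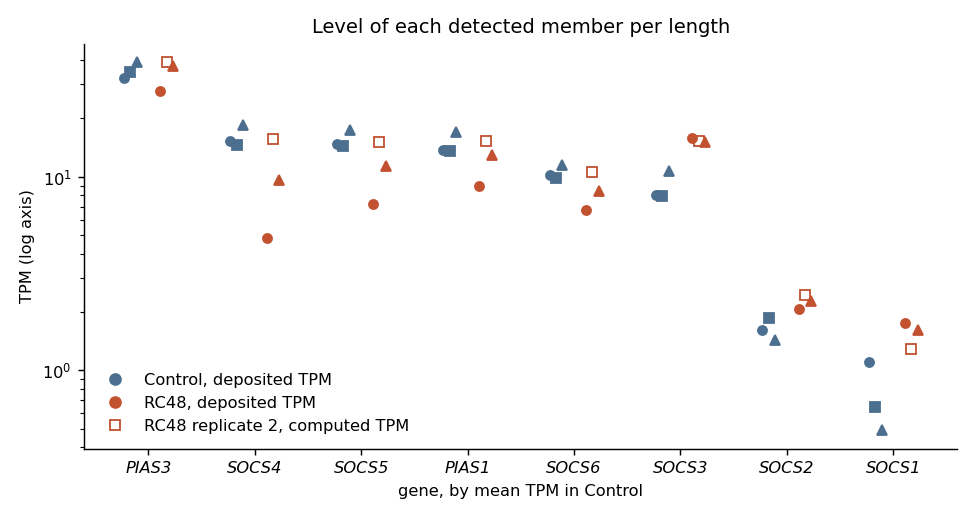
TPM of each detected member in each library on a log axis, ordered by the mean in Control. Blue symbols are Control and orange symbols RC48, with circles, squares and triangles for replicates 1, 2 and 3, and the open square is the computed TPM of RC48 replicate 2. SOCS3 moves from a mean of 8.90 TPM in Control to 15.4 TPM in RC48, where its mean is above those of SOCS4, SOCS5 and PIAS1. In RC48 replicate 2 these genes lie close together, with SOCS3 at 15.3, SOCS4 at 15.6, SOCS5 at 15.1 and PIAS1 at 15.2 TPM.

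The pathway that these inhibitors act on was described with 7 lists of 105 different genes, of which 84 were tested, 7 were called higher and 1 lower. Over all genes tested, these shares were 1.98% and 0.23%. Among the 11 JAK kinases and STAT factors, all tested, STAT2 and STAT3 were called higher, and the median log2 fold change was 0.44, against 0.02 over all genes tested. With the GC offset the median of this list fell to 0.26, against -0.014 over all genes tested. EdgeR then called 4 of its genes higher, against 7.87% of all genes tested called in either direction. STAT3, the factor downstream of gp130, was at 153, 145 and 175 CPM in Control and at 242, 250 and 231 CPM in RC48 (log2 fold change 0.61 ± 0.12, adjusted p = 0.0440, edgeR's quasi-likelihood test). STAT2, which carries the type I interferon signal, rose by 0.70 ± 0.12 on the log2 scale (adjusted p = 0.0346, same test). JAK1 had a log2 fold change of 0.21 ± 0.12 (adjusted p = 0.333, same test) and was not called. Scaled by library sizes alone, in place of TMM, no gene of this list was called. SOCS3 was at 7.48, 7.80 and 7.96 CPM per 100 CPM of STAT3 in Control and at 10.2, 8.54 and 9.55 in RC48, higher in every RC48 library (exact permutation p = 0.1). With the GC offset the log2 fold changes of SOCS3 and STAT3 were 0.60 and 0.52, against 0.89 and 0.61 without it, so the gap between them was smaller.

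Among 26 receptor chains that couple to JAK kinases, 20 were tested, and 1 was called in each direction. IL6R, the interleukin 6 receptor, was at 7.22, 6.20 and 6.41 CPM in Control and at 3.95, 3.43 and 3.06 CPM in RC48, a log2 fold change of -0.93 ± 0.17 (adjusted p = 0.0411, edgeR's quasi-likelihood test). IL7R, the interleukin 7 receptor, had 8 counts in Control and 94 in RC48, a ratio of 11.7 (exact 95% interval 5.68 to 27.8). Among 21 ligands, 8 were tested, and LIF and CSF2 were called higher. LIF, a ligand of a receptor that SOCS3 inhibits, was at 13.99, 15.1 and 15.7 CPM in Control and at 39.8, 24.5 and 28.0 CPM in RC48 (log2 fold change 1.05 ± 0.20, adjusted p = 0.0429, edgeR's quasi-likelihood test). CSF2, the growth factor GM-CSF, had 6 counts in Control and 162 in RC48, a ratio of 26.8 (exact 95% interval 12.045 to 74.1). IL6 itself had 1 count in Control and 11 in RC48 over 3 libraries each, too few to test.

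Of 9 other negative regulators of the pathway, 8 were tested and USP18, which limits type I interferon signalling, was called higher (8.51 ± 0.414 CPM in Control, 16.2 ± 1.17 CPM in RC48, adjusted p = 0.0157 in edgeR's quasi-likelihood test). Of 15 STAT3 target genes, 14 were tested, and BCL3, an IκB family co-regulator, was called higher (22.1 ± 0.732 CPM in Control, 63.7 ± 27.0 CPM in RC48, adjusted p = 0.0373, same test). The median over the list was 0.16, and 3 of its genes were higher and 2 lower at an unadjusted p under 0.05. With the GC offset the median was 0.0066, BCL3 was called higher, and MYC (-0.71, adjusted p = 0.00239) and BIRC5 (-0.42, adjusted p = 0.0305) were called lower by the same test. None of the 9 ubiquitin ligase partners of the SOCS box was called by edgeR or DESeq2, and none had an unadjusted p under 0.05 (median 0.16). Limma on 5 libraries called 1 of them and voom with quality weights 4. None of the 14 SUMO pathway genes was called by edgeR or DESeq2, and 2 had an unadjusted p under 0.05, both lower (median -0.15). Limma on 5 libraries called 4 of them and voom 7, all lower. Over all genes tested, limma on 5 libraries called 21.6% and voom 61.4%, and 19.1% had an unadjusted p under 0.05 in edgeR. In edgeR's quasi-likelihood test, IL7R and CSF2 kept their call whichever library was left out. The calls of STAT2, STAT3, IL6R, LIF, USP18 and BCL3 were lost without any 1 of the Control replicates or without RC48 replicate 3, with adjusted p up to 0.251, 0.309, 0.252, 0.248, 0.163 and 0.240 in that order.

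The genes closest to SOCS3 in pattern were ADAM19, COL27A1 and OAS3, by the root mean square difference of centred log2 CPM over the 6 libraries among 12557 genes. The differences were 0.036, 0.051 and 0.064 on the log2 scale. ADAM19, a membrane metalloprotease, was at 61.4, 58.7 and 72.4 CPM in Control and at 134, 114 and 120 CPM in RC48. As for SOCS3, Control replicate 3 was the highest Control library and RC48 replicate 1 the highest RC48 library. ADAM19 was picked for its likeness to SOCS3 over these same 6 libraries, so this shared order follows from the choice.

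Markers of leukocytes, which also express SOCS1 and SOCS3, summed to 1.85 to 1.91 CPM in Control and 5.65 to 8.86 CPM in RC48. Of the 10, 7 were listed and 5 were tested, and ITGAM was the 1 called, at 0 to 0.290 CPM in Control and 3.08 to 4.19 CPM in RC48. PTPRC, which defines leukocytes, was at 0 in all Control libraries and at most at 0.0607 CPM in RC48. Fibroblast markers summed to 443 to 475 CPM in Control and 444 to 558 CPM in RC48, with LUM lower (67.9 to 114 CPM, against 166 to 171 CPM) and COL3A1 higher (357 to 446 CPM, against 263 to 299 CPM) in every RC48 library. The endothelial markers summed to 27.9 to 29.7 CPM in Control and 18.4 to 24.9 CPM in RC48. The part of these markers in the SOCS3 difference was not tested.

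Over 21 other settings of the analysis, SOCS3 stayed higher in RC48, with log2 fold changes of 0.51 to 0.99, and had an adjusted p under 0.05 in 14. SOCS1, SOCS2 and SOCS4 also kept their direction wherever they were fitted, with an adjusted p under 0.05 in 3, 1 and 3 settings. PIAS1 and SOCS7 were called in none. Voom with quality weights called 7 of 8 members (all but PIAS1), against 61.4% of all genes tested. Limma on the 5 libraries with deposited TPM called 4 (SOCS1, SOCS3, SOCS4 and SOCS5), against 21.6%. EdgeR without RC48 replicate 2 called these 4, against 28.3%. Both settings used the same 5 libraries and left out the RC48 library without the GC trend.

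**Figure D5:**
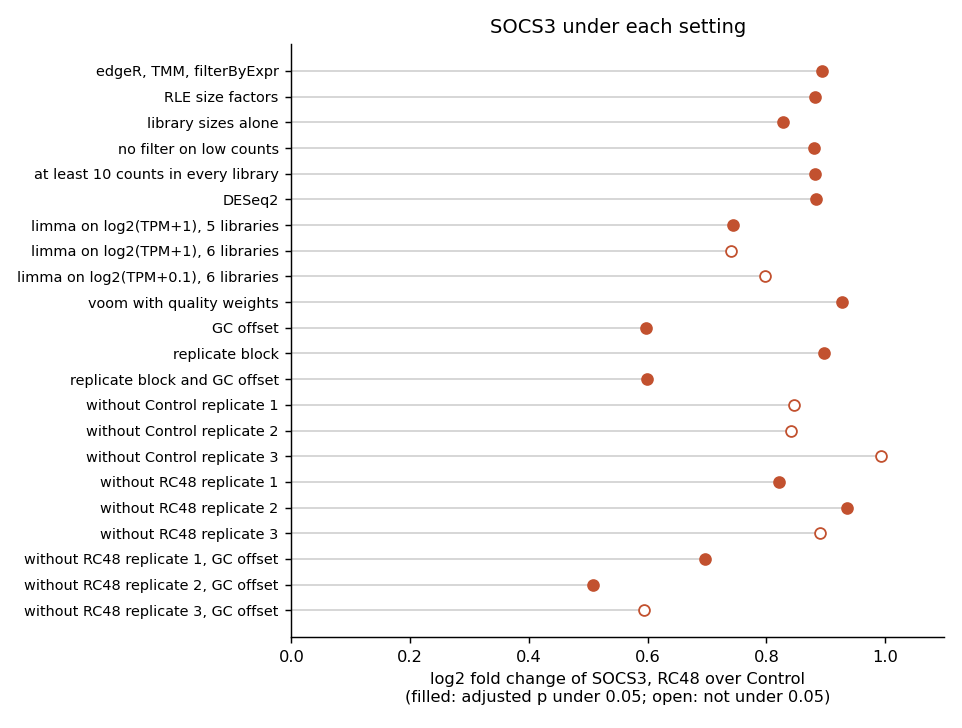
Log2 fold change of SOCS3, RC48 over Control, in the edgeR fit and under 21 other settings. Filled points have an adjusted p under 0.05. All points lie to the right of 0, between 0.51 and 0.99, and the open points are the fits of limma to 6 libraries, those without 1 Control replicate and those without RC48 replicate 3.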

How the data were processed

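Total RNA of SW780 was sequenced in 6 libraries. Filtering (SOAPnuke), mapping (Bowtie2) and estimation of counts per gene (RSEM) were done by the authors, and the labels name hg38. The deposited estimated counts are not normalized, and 11.7% to 15.0% of a library's values are not whole. The deposited TPM values were normalized by the authors for length and depth. TPM of RC48 replicate 2 was computed from its counts and the lengths implied by the other libraries. Repeated on each of the 5 other libraries, this gave median absolute log2 differences of 0.025 to 0.075 from the deposited TPM.

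Counts were rounded, filtered by filterByExpr, normalized by TMM and tested with edgeR 4.0.16 (quasi-likelihood, Benjamini-Hochberg, threshold 0.05) in R 4.3.3. Exact permutation tests were two-sided, on log2(CPM + 0.5). GC content was available for 16289 genes, and the GC offset subtracts a loess trend (span 0.3) from each library. Python 3.11.15, numpy 2.4.6, pandas 2.3.3, scipy 1.17.1 and matplotlib 3.10.9 made the tables and figures. Alternatives used DESeq2 1.42.0, limma 3.58.1 on log2(TPM+1) or log2(TPM+0.1), voom, other scalings and filters, a replicate block and each library left out. The GC offset with an RC48 library left out, and levels from deposited TPM alone, were added after seeing the data. On simulated data with each library's GC trend, 141 of 200 changed genes were called without the offset (70.5%) and 177 with it (88.5%). On simulated data without a trend, 179 were called without the offset (89.5%) and 178 with it (89.0%). The offset was fitted in the same way as the trend that was added. The simulation therefore checks the calculation and cannot tell whether the offset suits the real libraries. A count of 0 allows up to 3 counts.

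Named are the 9 members, SOCS7, PIAS2, PIAS4, STAT2, STAT3, JAK1, called genes of each list (at most 4 per direction, by size), and the 3 genes of at least 1 CPM nearest each called member. IL6, MYC, BIRC5 and the marker genes were named beyond this rule, and 1 gene that the rule names is not reported here. The members and lists were chosen with earlier results of these data known.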

Additional observations from a re-analysis of the deposited data

How the results depend on the processing

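Of 8 members, edgeR called 1 (SOCS3), and the count was the same with library sizes alone, RLE size factors, DESeq2, no filter on counts, a minimum of 10 counts per library and the GC offset. It was 4 with limma on 5 libraries, 0 with limma on log2(TPM+1) or log2(TPM+0.1) of 6 libraries, 7 with voom and quality weights, 0 to 4 with 1 library left out, and 0 or 1 with an RC48 library left out and the GC offset. The 288 genes called became 744 with DESeq2, 2854 with limma on 5 libraries, 8018 with voom, 1027 with the GC offset, 714 with the replicate block and GC offset, 68 to 3726 with 1 library left out, and 1769, 2003 and 382 without RC48 replicate 1, 2 or 3 and with the GC offset. The 8 pathway genes called became 5 with a minimum of 10 counts per library, 14 with DESeq2, 21 with limma on 5 libraries, 5 with limma on 6 libraries at either pseudocount, 50 with voom, 15 with the GC offset, 14 with the replicate block and GC offset, 2 to 27 with 1 library left out, and 20, 20 and 11 without RC48 replicate 1, 2 or 3 and with the GC offset. The cause of these shifts was not tested.

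With the GC offset, the log2 fold changes that changed sign were 0.15 for SOCS6, 0.062 for PIAS1, -0.11 for PIAS3 and -0.15 for PIAS4, and with the replicate block added 0.15, 0.063, -0.13 and -0.16. With the GC offset and without RC48 replicate 1, 2 or 3, SOCS6 had 0.031, 0.24 and 0.18 and PIAS1 had 0.068, 0.083 and 0.039. Without RC48 replicates 2 and 3 in turn, PIAS3 had -0.24 and -0.17 and PIAS4 -0.27 and -0.17, and without replicate 2 SOCS5 had 0.00097 and PIAS2 0.060. PIAS3 also turned to -0.13 with limma on 5 libraries, -0.037 and -0.038 with limma on 6 libraries at pseudocounts 1 and 0.1, and -0.019 without RC48 replicate 3. SOCS7 turned to 0.12 without Control replicate 3 and to 0.00185 without RC48 replicate 2.

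Nothing states that replicate numbers pair the libraries. The deviations of same-numbered libraries from their group mean correlated at 0.00204, -0.132 and 0.00478, and those of differently numbered libraries at -0.112 to 0.131. With 3 libraries per group and a GC trend that differs between RC48 libraries, these values cannot decide whether libraries were paired. With the replicate block, 331 genes and 1 member were called, and SOCS3 had 0.90 (adjusted p = 0.0337). The low counts of SOCS1 and SOCS2 limit their precision, and RC48 replicates limit that of SOCS4, SOCS5 and SOCS6.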
